A study of Sordaria macrospora with 14 samples.

Results

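In mycelium of the filamentous fungus Sordaria macrospora that lacked spt3, 79 genes expressed in wild-type mycelium left almost no RNA. They are the gene models that averaged at least 10 CPM (counts per 1000000 counts of the library) in wild-type mycelium and had at most 3 counts in all over both delta-spt3 mycelium libraries. The 79 were found among 9869 gene models, and among the 7382 gene models that reached 10 CPM in wild-type mycelium they made up 1.07%. The genes were thus chosen by their measured values in delta-spt3 and wild-type mycelium, and the difference between those groups is described without a test. The 7382 gene models are called mycelium-expressed genes in what follows.

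In the yeast Saccharomyces cerevisiae, Spt3 is a subunit of SAGA, a coactivator complex that acetylates histones and helps to bring the TATA-binding protein to promoters. S. macrospora is a self-fertile ascomycete in which a mycelium forms perithecia, the flask-shaped fruiting bodies that hold the ascospores. The genes were known here by identifier alone, so no function is stated for any of them.

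RNA was sequenced from 7 groups with 2 independent biological replicates each. Perithecia came from delta-asm2, delta-SMAC_03952 and wild type, and total sexual mycelium came from delta-spt3, delta-asm2, delta-SMAC_03952 and wild type. Each delta strain is labelled as lacking the gene in its name, and the labels do not say how many clones stand behind a strain. All cultures grew for 6 days at 25 °C on corn meal medium, with mycelium from liquid and perithecia from solid medium, so tissue and culture form cannot be told apart. Perithecia were fixed in ethanol for 10 min, scraped off and homogenised, which was not described for mycelium. Perithecia of delta-spt3 were not analysed here. The tissue labels were not checked against marker genes. In bulk RNA of this kind, fewer cells of a type and less RNA per cell cannot be told apart.

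Library totals ran between 6383079 counts in replicate 1 of delta-SMAC_03952 perithecia and 24029990 counts in replicate 1 of wild-type mycelium, and the delta-spt3 libraries held 16369408 and 14038966. SMAC_03952 itself had 49.5 and 40.8 CPM in perithecia and 20.8 and 23.4 CPM in mycelium of its deletion strain, against 163 and 205 CPM in wild-type perithecia and 247 and 230 CPM in wild-type mycelium. Its RNA was thus lower in the deletion strain in both tissues but not at 0. The identifiers of asm2 and spt3 were not used here, so these deletions were not checked. The deleted spt3 gene could itself meet the rule, and whether it is among the chosen genes was not checked.

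Several mycelium libraries stood apart on these 79 genes. In delta-asm2 mycelium, 37 of the 79 genes (46.8%) were at least 2-fold higher in replicate 2 than in replicate 1, against 5.64% of the 7382 mycelium-expressed genes. In delta-SMAC_03952 mycelium the same held for 40 genes (50.6%), against 5.31%. The lists shared 30 genes, which is 81.1% of the delta-asm2 list and 75% of the delta-SMAC_03952 list. In wild-type mycelium the direction was the other one, with 69 of the 79 genes higher in replicate 1, against 4235 of the 7382. The median ratio of replicate 2 to replicate 1 in perithecia was 1.17 in delta-asm2, 1.18 in delta-SMAC_03952 and 1.12 in wild type. In mycelium it was 1.66 in delta-asm2, 2.03 in delta-SMAC_03952 and 0.749 in wild type. Such a median does not show spread in both directions. In wild-type perithecia 10 genes (12.7%) were at least 2-fold higher in replicate 2, against 5.05% of the mycelium-expressed genes, and 2 in replicate 1. In wild-type mycelium 1 gene was at least 2-fold higher in replicate 2 and 7 in replicate 1. SMAC_01449 is an example, at 7.67 and 45.8 CPM in delta-asm2 mycelium, 5.80 and 24.7 CPM in delta-SMAC_03952 mycelium and 99.6 and 53.5 CPM in wild-type mycelium. The part of these libraries in the results was not tested other than by leaving them out, and counts of genes that passed a test are given below with the libraries they rest on.

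**Figure D1:**
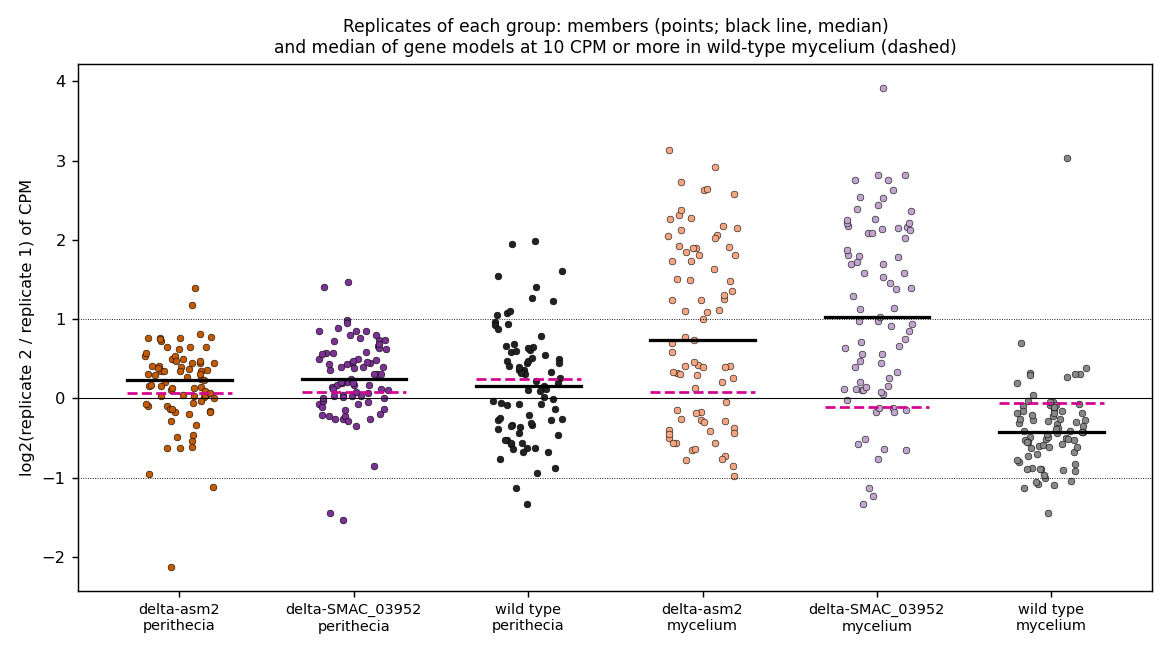
Log2 ratio of replicate 2 to replicate 1 in CPM (vertical axis) for the 79 genes (points, called members in the titles) in each group other than delta-spt3 mycelium, with the median of the 79 genes as a black line, that of the 7382 mycelium-expressed genes as a dashed line and 2-fold differences as dotted lines. In mycelium of delta-asm2 and delta-SMAC_03952, 37 and 40 points lie at or above the upper dotted line, and in wild-type mycelium 69 points lie below 0.

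Of the 79 genes, 38 had 0 counts over both delta-spt3 libraries, 18 had 1, 10 had 2 and 13 had 3. Summed over all 79 genes this was 39 counts in replicate 1 and 38 in replicate 2. The rule caps the sum of both libraries, so it required each of them to be low. The highest level of any of these genes in a delta-spt3 library was 0.214 CPM. A total of 3 counts over both libraries corresponded to 0.0987 CPM. This was set as an approximate upper limit for a count of 0, and the lower bounds on fold differences below rest on it. This limit covers counting error only.

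SMAC_12709 had no counts in delta-spt3 mycelium, against 347 and 336 CPM in wild-type mycelium, which makes it at least 3460-fold lower without spt3. SMAC_07760 also had no counts, against 180 and 171 CPM in wild-type mycelium, and was at least 1781-fold lower. SMAC_09183, the gene with the highest CPM of the 79 in wild-type mycelium, had 0.0611 and 0.0712 CPM in delta-spt3 mycelium, against 542 and 398 CPM in wild-type mycelium. Over the 38 genes with no counts the lower bounds ran between 108-fold and 3460-fold. In the authors' deposited table the log2 fold changes of delta-spt3 against wild-type mycelium ran between -14.64 and -6.54 for the 79 genes, with a median of -10.02.

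The genes were not silent elsewhere. Across the 12 libraries of the other 6 groups, 65 of the 79 genes had at least 1 CPM in every library, and 25 had at least 10 CPM in every library. The summed level of all 79 genes was 6556 and 6941 CPM in delta-asm2 perithecia, 7946 and 9046 CPM in delta-SMAC_03952 perithecia and 7065 and 7121 CPM in wild-type perithecia. In mycelium the sum was 2.38 and 2.71 CPM in delta-spt3, 2657 and 3095 CPM in delta-asm2, 3226 and 4647 CPM in delta-SMAC_03952 and 4543 and 3549 CPM in wild type. The delta-spt3 sums were near 0 by the rule, and those of no other group were. The 6 perithecium libraries had higher sums than any mycelium library. Abundant genes weigh most in these sums, and the highest averaged 1279 CPM in wild-type perithecia. The median of the 79 genes in wild type went the other way, at 9.70 CPM in perithecia against 27.8 CPM in mycelium. In both deletion strains the median was higher in perithecia, as given below.

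**Figure D2:**
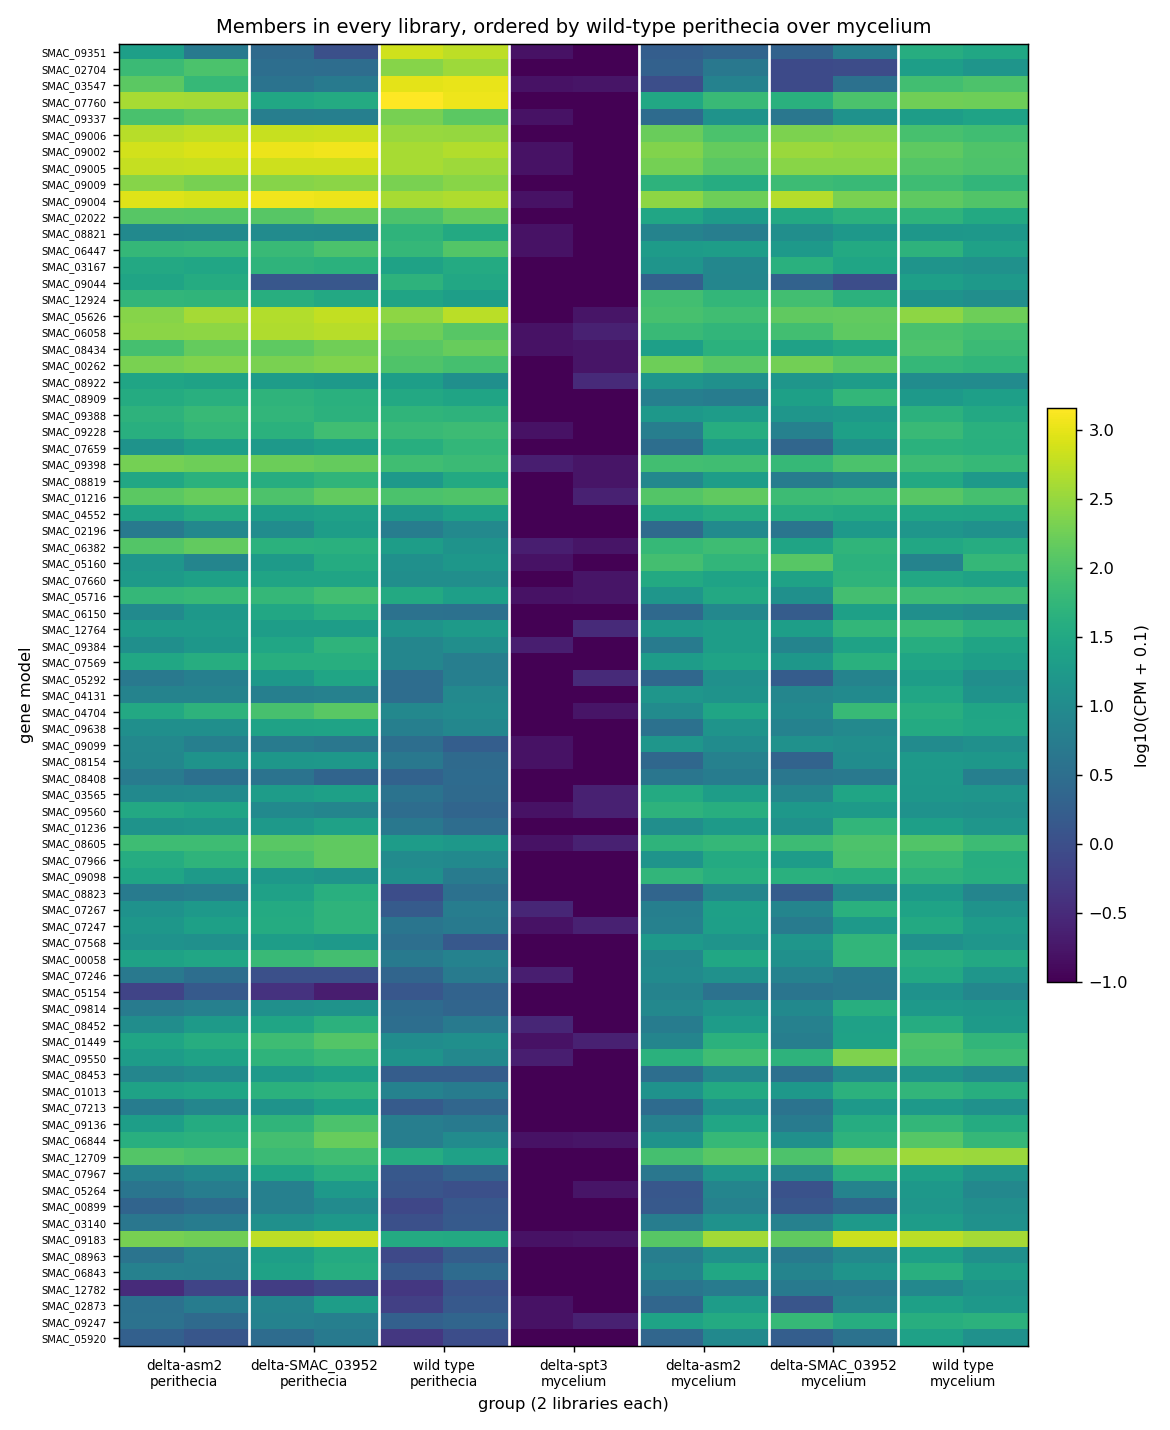
Heat map of the 79 genes (rows) in the 14 libraries (columns), coloured by log10(CPM + 0.1) and ordered by the ratio of wild-type perithecia to wild-type mycelium, highest at the top. The 2 delta-spt3 columns are at or near 0 throughout, with at most 0.214 CPM, and the other 12 columns hold signal in most rows.

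The threshold divided a continuous range. Just inside it in wild-type mycelium lay SMAC_08922 at 10.1 CPM, followed by SMAC_05154, SMAC_06150, SMAC_09099 and SMAC_12782. Just outside lay SMAC_03636 at 9.66, SMAC_00618 at 9.63, SMAC_06908 at 9.60, SMAC_09718 at 9.18 and SMAC_07245 at 9.15 CPM. A further 14 genes missed the rule by a single count, with 4 counts in delta-spt3 mycelium, among them SMAC_07978 at 2497 CPM and SMAC_03372 at 1826 CPM in wild-type mycelium, both far above any of the 79. For 8 of the 79 genes 1 wild-type mycelium library was under 10 CPM, and the gap to the other library varied. SMAC_05160 had 7.16 and 58.7 CPM in wild-type mycelium, while SMAC_08453 averaged 11.6 CPM there with an SD of 2.89 CPM.

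The 79 gene models were short. Their median length was 1315 bases, against 2070 bases for all mycelium-expressed genes, and 31.6% of them were under 1000 bases, against 9.92%. The rule counts reads without regard to length, and the part of length in it was not tested. Per length, the genes were of ordinary abundance in wild-type mycelium, with a median of 23.0 CPM per kb against 24.4 CPM per kb for all mycelium-expressed genes. SMAC_12709 had the highest level per length at 528 CPM per kb, ahead of SMAC_09183 at 346 and SMAC_09550 at 150 CPM per kb, and SMAC_09044 had the lowest at 4.26 CPM per kb.

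Between the 6 groups other than delta-spt3 mycelium the genes varied widely. The ratio of the highest to the lowest group mean had a median of 8.58 over the 79 genes, against 2.21 over all mycelium-expressed genes. It reached 10 in 33 genes and stayed under 2 in 2, and ran between 1.81 in SMAC_04552 and 479 in SMAC_03547. SMAC_04552 had 25.2 and 35.6 CPM in delta-asm2 perithecia, 21.5 and 23.6 CPM in delta-SMAC_03952 perithecia and 15.6 and 22.8 CPM in wild-type perithecia. In mycelium it had 28.2 and 37.5 CPM in delta-asm2, 36.9 and 32.8 CPM in delta-SMAC_03952 and 27.8 and 26.2 CPM in wild type, and no counts in delta-spt3. It was called lower in perithecia than in mycelium of delta-SMAC_03952 (-0.86 ± 0.24, edgeR adjusted p = 0.0180), a call that ended without either perithecium library, without scaling factors and with the length trend removed. SMAC_01216, among the 10 with the highest CPM in wild-type mycelium, was at 127 and 157 CPM in delta-asm2 perithecia, 101 and 142 CPM in delta-SMAC_03952 perithecia and 93.9 and 101 CPM in wild-type perithecia. Its mycelium held 110 and 137 CPM in delta-asm2, 69.3 and 75.3 CPM in delta-SMAC_03952 and 120 and 85.8 CPM in wild type, against 2 counts in all in delta-spt3. Whether SMAC_04552 or SMAC_01216 is the deleted spt3 gene was not checked. Perithecia of delta-SMAC_03952 were the group with the highest mean for 35 genes, and wild-type perithecia the group with the lowest mean for 44. The median level was 26.1 CPM in delta-asm2 perithecia, 33.1 CPM in delta-SMAC_03952 perithecia and 9.70 CPM in wild-type perithecia, and in mycelium 17.9 CPM in delta-asm2, 24.9 CPM in delta-SMAC_03952 and 27.8 CPM in wild type.

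In wild type most of the genes were lower in perithecia than in mycelium. Both perithecium libraries lay below both mycelium libraries for 50 of the 79 genes (background over mycelium-expressed genes 29.8%), both lay above for 23 (background 34.2%) and the groups overlapped for 6. The median log2 ratio of perithecia to mycelium was -1.85 for the 79 genes and 0.07 for the 7382 genes. The choice of genes required a level in wild-type mycelium, so these values describe the genes and carry no test. The lowest ratios belonged to SMAC_05920, SMAC_09247, SMAC_02873, SMAC_12782 and SMAC_06843, and the highest to SMAC_09351, SMAC_02704, SMAC_03547, SMAC_07760 and SMAC_09337. SMAC_09247 had 1.75 and 2.20 CPM in wild-type perithecia, against 40.2 and 46.0 CPM in wild-type mycelium. SMAC_09351 was the opposite case, at 706 and 550 CPM in wild-type perithecia, against 39.4 and 29.4 CPM in wild-type mycelium.

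The contrasts between perithecia and mycelium of the deletion strains did not enter the choice of genes and were tested. All tests used edgeR's quasi-likelihood test on 9499 genes with Benjamini-Hochberg adjustment and a threshold of 0.05, and all 79 genes passed the filter on low counts. In delta-asm2, 20 of the 79 genes were higher in perithecia than in mycelium (background over all genes tested 12.9%) and 8 were lower (background 13.3%), with a median log2 fold change of 0.18 for the 79 genes and 0.04 for all genes. The 20 are 25.3% of the 79 and the 8 are 10.1%, so the higher share was above its background and the lower share near it. Of these 28 calls, 18 were kept without each library in turn.

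SMAC_02704 had 69.0 and 93.7 CPM in delta-asm2 perithecia, against 1.87 and 4.45 CPM in delta-asm2 mycelium, with no overlap (log2 fold change 4.595 ± 0.362 SE, edgeR adjusted p = 3.85e-05). SMAC_03547 had 130 and 60.02 CPM in delta-asm2 perithecia, against 0.905 and 6.83 CPM in delta-asm2 mycelium (4.603 ± 0.724, edgeR adjusted p = 0.000765). SMAC_09337 followed at 91.9 and 118 CPM in delta-asm2 perithecia, against 2.78 and 13.3 CPM in delta-asm2 mycelium (3.62 ± 0.63, edgeR adjusted p = 0.00152). These genes were also among those with the highest ratio of perithecia to mycelium in wild type. Among genes that fell, SMAC_09247 had 3.65 and 2.64 CPM in delta-asm2 perithecia, against 25.6 and 35.1 CPM in delta-asm2 mycelium (-3.42 ± 0.31, edgeR adjusted p = 3.85e-05). SMAC_12782 was near the limit of detection in perithecia, with 0.228 and 0.601 CPM in delta-asm2 perithecia against 4.04 and 5.32 CPM in delta-asm2 mycelium (-3.57 ± 0.54, edgeR adjusted p = 0.000751). Each of these 5 calls was kept without any 1 library.

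In delta-SMAC_03952, 21 genes were higher in perithecia (background 16.4%) and 12 were lower (background 19.4%), with a median of 0.44 for the 79 genes and 0.00 for all genes. SMAC_08819 rose most, at 38.2 and 52.5 CPM in delta-SMAC_03952 perithecia, against 5.42 and 8.39 CPM in delta-SMAC_03952 mycelium (log2 fold change 2.45 ± 0.45, edgeR adjusted p = 0.00205). SMAC_08434 had 131 and 177 CPM in delta-SMAC_03952 perithecia, against 23.6 and 32.7 CPM in delta-SMAC_03952 mycelium (2.21 ± 0.34, edgeR adjusted p = 0.000791). SMAC_09247 fell in this strain too, to 6.74 and 6.11 CPM in perithecia, against 61.1 and 38.9 CPM in mycelium (-3.18 ± 0.31, edgeR adjusted p = 4.56e-05). SMAC_05154 fell to 0.313 and 0.115 CPM in delta-SMAC_03952 perithecia, against 4.03 and 4.65 CPM in delta-SMAC_03952 mycelium (-4.62 ± 0.71, edgeR adjusted p = 0.000997). These 4 calls were kept without each library, but the counts were not stable. They came to 18 and 15 without perithecium replicate 1 or 2, where 18.9% and 13.9% of all genes were called. Without mycelium replicate 1 they were 12 higher and 17 lower, against 13.1% and 17.2% of all genes in that fit. Without mycelium replicate 2, the library in which many of the genes were high, they were 33 higher and 9 lower, against 11.7% and 13.5% of all genes.

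SMAC_05626 and SMAC_02022 rose in perithecia of both deletion strains, in each fit without 1 library. SMAC_05626 had 254 and 399 CPM in delta-asm2 perithecia against 87.7 and 77.3 CPM in delta-asm2 mycelium (1.82 ± 0.31, edgeR adjusted p = 0.00142). In delta-SMAC_03952 it had 477 and 588 CPM in perithecia against 137 and 143 CPM in mycelium (1.69 ± 0.31, edgeR adjusted p = 0.00206). SMAC_02022 had 121 and 114 CPM in delta-asm2 perithecia against 28.6 and 19.3 CPM in delta-asm2 mycelium (2.13 ± 0.31, edgeR adjusted p = 0.000584).

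Both strains together had 13 genes called higher in perithecia in each and 5 called lower in each. The share of all genes called alike in both strains is not given here, so nothing is drawn from these joint counts. SMAC_07760 was called in opposite directions. It had 404 and 390 CPM in delta-asm2 perithecia, against 31.3 and 66.5 CPM in delta-asm2 mycelium (log2 fold change 2.89 ± 0.42, edgeR adjusted p = 0.000627). In delta-SMAC_03952 it had 29.8 and 35.2 CPM in perithecia, against 42.8 and 94.1 CPM in mycelium (-1.33 ± 0.41, edgeR adjusted p = 0.0256), a call that ended without mycelium replicate 2 or either perithecium library, without scaling factors, and in a fit to these groups alone. SMAC_07760 was the 1 gene of the 79 that passed the test of the difference between the strains' tissue effects, as higher (background 0.105%). No lower call fell among the 79 (background 0.0421%). An unadjusted p under 0.05 was found for 18 of the 79. The share of all genes at that cut is not given, so nothing is drawn from the 18. DESeq2 called 6 of the 79, against 1.2% of all genes it tested.

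Perithecia of the deletion strains were then compared with wild-type perithecia. In perithecia of delta-SMAC_03952, 43 of the 79 genes (54.4%) were higher than in wild-type perithecia (background 6.24%) and 9 (11.4%) were lower (background 11.2%), with a median log2 fold change of 1.25 for the 79 genes and -0.01 for all genes. In delta-asm2 perithecia, 20 genes (25.3%) were higher (background 5.04%) and 5 (6.33%) were lower (background 6.73%), with medians of 0.95 and 0.01. In the joint fit the higher shares were thus above the background in both strains and the lower shares close to it. Both comparisons share the wild-type perithecium libraries, which raises the number of joint calls. There were 16 genes called higher in both and 5 lower in both. No joint share of all genes is given, so nothing is drawn from these numbers.

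These counts also moved with single libraries. When any 1 library of the groups compared was left out, the share of all genes called fell too. The loss of calls was thus not limited to the chosen genes. For delta-SMAC_03952 the 52 calls came to 37 and 27 without its replicate 1 or 2 and to 34 and 29 without wild-type replicate 1 or 2, and 23 were kept in every such fit. For delta-asm2 the 25 calls came to 9 and 7 without its replicate 1 or 2 and to 15 and 8 without wild-type replicate 1 or 2, and 6 were kept in every such fit. Without wild-type replicate 2 the calls were 3 higher and 5 lower, against 2.12% and 5.24% of all genes in that fit. A fit to delta-asm2 and wild-type perithecia alone gave 34 higher and 6 lower, against 7.97% and 8.81% of all genes.

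**Figure D3:**
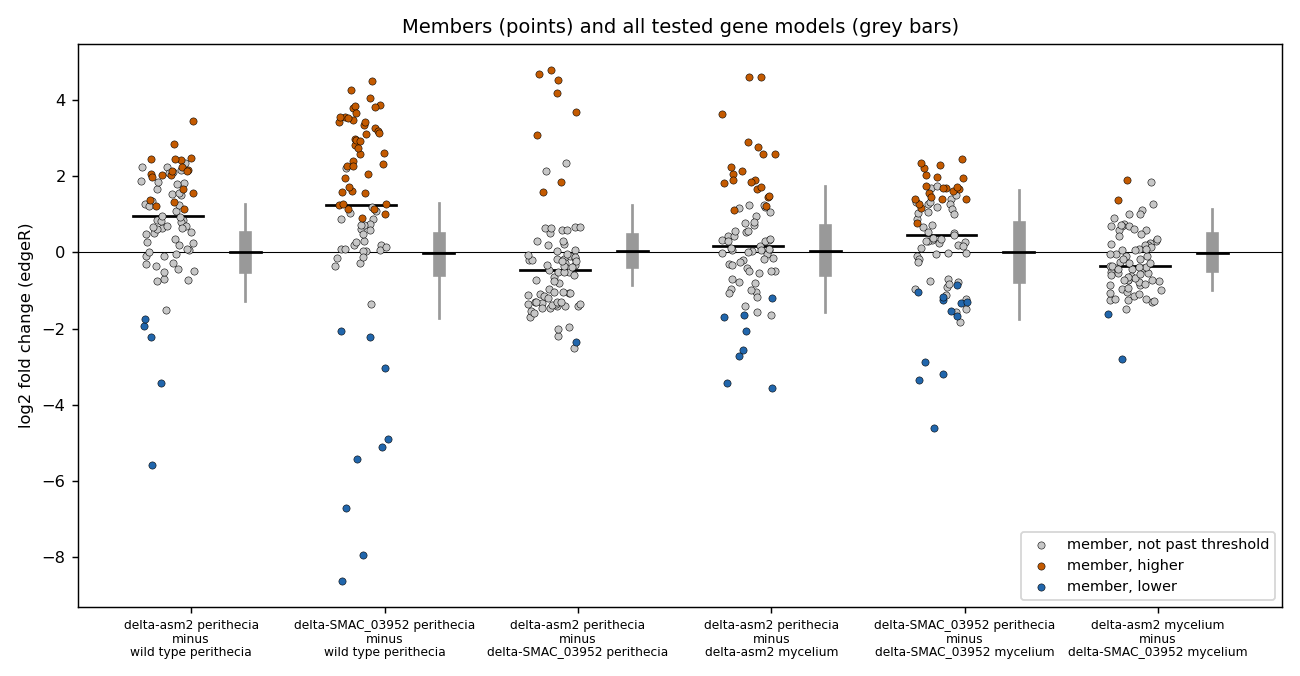
Log2 fold changes by edgeR (vertical axis) of the 79 genes in 6 tested comparisons, as points coloured by call, with their median as a black line. The grey bars beside them span percentiles 25 to 75 (thick) and 5 to 95 (thin) of all 9499 genes tested; in delta-SMAC_03952 against wild-type perithecia 43 points are called higher and 9 lower, around a median of 1.25.

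SMAC_08605 was called higher in both comparisons and in each fit without 1 library. It had 72.4 and 74.2 CPM in delta-asm2 perithecia and 122 and 138 CPM in delta-SMAC_03952 perithecia, against 19.5 and 16.2 CPM in wild-type perithecia. The log2 fold change was 1.99 ± 0.26 in delta-asm2 (edgeR adjusted p = 0.000432) and 2.74 ± 0.27 in delta-SMAC_03952 (edgeR adjusted p = 2.34e-05). In mycelium the gene had 50.3 and 58.0 CPM in delta-asm2, 71.5 and 97.5 CPM in delta-SMAC_03952 and 108 and 71.8 CPM in wild type, so wild-type perithecia were the low group.

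SMAC_09560 was highest in delta-asm2. It had 32.1 and 26.2 CPM in delta-asm2 perithecia and 9.24 and 7.72 CPM in delta-SMAC_03952 perithecia, against 2.98 and 2.20 CPM in wild-type perithecia (delta-asm2 against wild type 3.44 ± 0.31, edgeR adjusted p = 4.36e-05). SMAC_06382 had the same order, at 111 and 142 CPM in delta-asm2 perithecia and 45.6 and 43.5 CPM in delta-SMAC_03952 perithecia, against 20.2 and 13.6 CPM in wild-type perithecia (delta-asm2 against wild type 2.84 ± 0.36, edgeR adjusted p = 0.000297). Both calls of delta-asm2 were kept without each library. The call of SMAC_06382 in delta-SMAC_03952 (1.27 ± 0.35, edgeR adjusted p = 0.0243) ended without either library of that group or wild-type replicate 2.

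In delta-SMAC_03952 perithecia the largest rise was that of SMAC_08963, which had 21.2 and 34.8 CPM there, against 0.728 and 1.56 CPM in wild-type perithecia (log2 fold change 4.51 ± 0.56, edgeR adjusted p = 0.000234). SMAC_07967 had 26.01 and 41.9 CPM, against 1.31 and 1.98 CPM in wild-type perithecia (4.26 ± 0.80, edgeR adjusted p = 0.00375). SMAC_09183 had 544 and 673 CPM in delta-SMAC_03952 perithecia, against 34.6 and 33.2 CPM in wild-type perithecia (4.05 ± 0.66, edgeR adjusted p = 0.00123). SMAC_09183 also shows how far mycelium replicates differed: it had 120 and 374 CPM in delta-asm2 mycelium and 136 and 654 CPM in delta-SMAC_03952 mycelium. In delta-asm2 perithecia it had 205 and 179 CPM, and that call (2.46 ± 0.61, edgeR adjusted p = 0.0220) ended without any 1 of the delta-asm2 or wild-type perithecium libraries.

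Split by tissue in wild type, the calls were distributed as follows. Of the 50 genes lower in perithecia than in mycelium of wild type, 37 were called higher and 2 lower in delta-SMAC_03952 against wild-type perithecia, and 17 were called higher in delta-asm2 against wild-type perithecia. Of the 23 genes for which wild-type perithecia were the higher tissue, 5 were called higher and 7 lower in delta-SMAC_03952, and 2 higher and 5 lower in delta-asm2. The wild-type perithecium libraries enter both the split and these comparisons, so a low value there raises both numbers, and nothing is drawn from the split.

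Some genes went the other way and were lower in perithecia of the deletion strains than in wild-type perithecia. Such calls made up 6.33% of the 79 in delta-asm2 and 11.4% in delta-SMAC_03952, against 6.73% and 11.2% of all genes. They are therefore described as single genes and are no result about the 79. SMAC_09351 had 22.2 and 5.11 CPM in delta-asm2 perithecia and 2.66 and 0.922 CPM in delta-SMAC_03952 perithecia, against 706 and 550 CPM in wild-type perithecia. Its log2 fold change was -5.57 ± 0.70 in delta-asm2 (edgeR adjusted p = 0.000286) and -8.64 ± 0.85 in delta-SMAC_03952 (edgeR adjusted p = 2.3e-05). SMAC_03547 had 130 and 60.02 CPM in delta-asm2 perithecia and 3.76 and 4.96 CPM in delta-SMAC_03952 perithecia, against 966 and 1028 CPM in wild-type perithecia. Its fold change in delta-SMAC_03952 was -7.94 ± 0.82 (edgeR adjusted p = 3.77e-05). In delta-asm2 it was -3.42 ± 0.65 (edgeR adjusted p = 0.00461), a call that ended without delta-asm2 replicate 2 (edgeR adjusted p = 0.0756).

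SMAC_02704 had 69.0 and 93.7 CPM in delta-asm2 perithecia and 3.13 and 2.998 CPM in delta-SMAC_03952 perithecia, against 253 and 352 CPM in wild-type perithecia. It fell in both, by 1.92 on the log2 scale in delta-asm2 (SE 0.31, edgeR adjusted p = 0.00191) and by 6.72 in delta-SMAC_03952 (SE 0.40, edgeR adjusted p = 1.57e-06). SMAC_07760 had 404 and 390 CPM in delta-asm2 perithecia and 29.8 and 35.2 CPM in delta-SMAC_03952 perithecia, against 1433 and 1125 CPM in wild-type perithecia. It fell by 5.43 in delta-SMAC_03952 (SE 0.47, edgeR adjusted p = 1.67e-05); the call in delta-asm2 (-1.75 ± 0.40, edgeR adjusted p = 0.0161) ended without either delta-asm2 library or wild-type replicate 1. SMAC_12709, the gene with the highest level per length in wild-type mycelium, was not of this kind: it had 109 and 96.4 CPM in delta-asm2 perithecia and 67.4 and 77.1 CPM in delta-SMAC_03952 perithecia, against 37.8 and 24.2 CPM in wild-type perithecia. In SMAC_09351, SMAC_03547, SMAC_02704 and SMAC_07760 the levels in delta-SMAC_03952 perithecia lay below those in delta-asm2 perithecia, which lay below wild type.

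For SMAC_09337 and SMAC_09044 the fall passed the test in delta-SMAC_03952 alone. SMAC_09337 had 91.9 and 118 CPM in delta-asm2 perithecia and 5.95 and 6.23 CPM in delta-SMAC_03952 perithecia, against 199 and 129 CPM in wild-type perithecia (delta-SMAC_03952 against wild type -4.89 ± 0.68, edgeR adjusted p = 0.000379). SMAC_09044 had 26.4 and 36.05 CPM in delta-asm2 perithecia and 1.25 and 1.27 CPM in delta-SMAC_03952 perithecia, against 49.2 and 30.7 CPM in wild-type perithecia (delta-SMAC_03952 against wild type -5.12 ± 0.67, edgeR adjusted p = 0.000373). SMAC_08821 was low to the same degree in both strains, at 9.20 and 9.61 CPM in delta-asm2 perithecia and 9.87 and 9.57 CPM in delta-SMAC_03952 perithecia, against 49.6 and 33.5 CPM in wild-type perithecia (delta-asm2 -2.21 ± 0.34, edgeR adjusted p = 0.00116; delta-SMAC_03952 -2.23 ± 0.35, edgeR adjusted p = 0.000889).

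**Figure D4:**
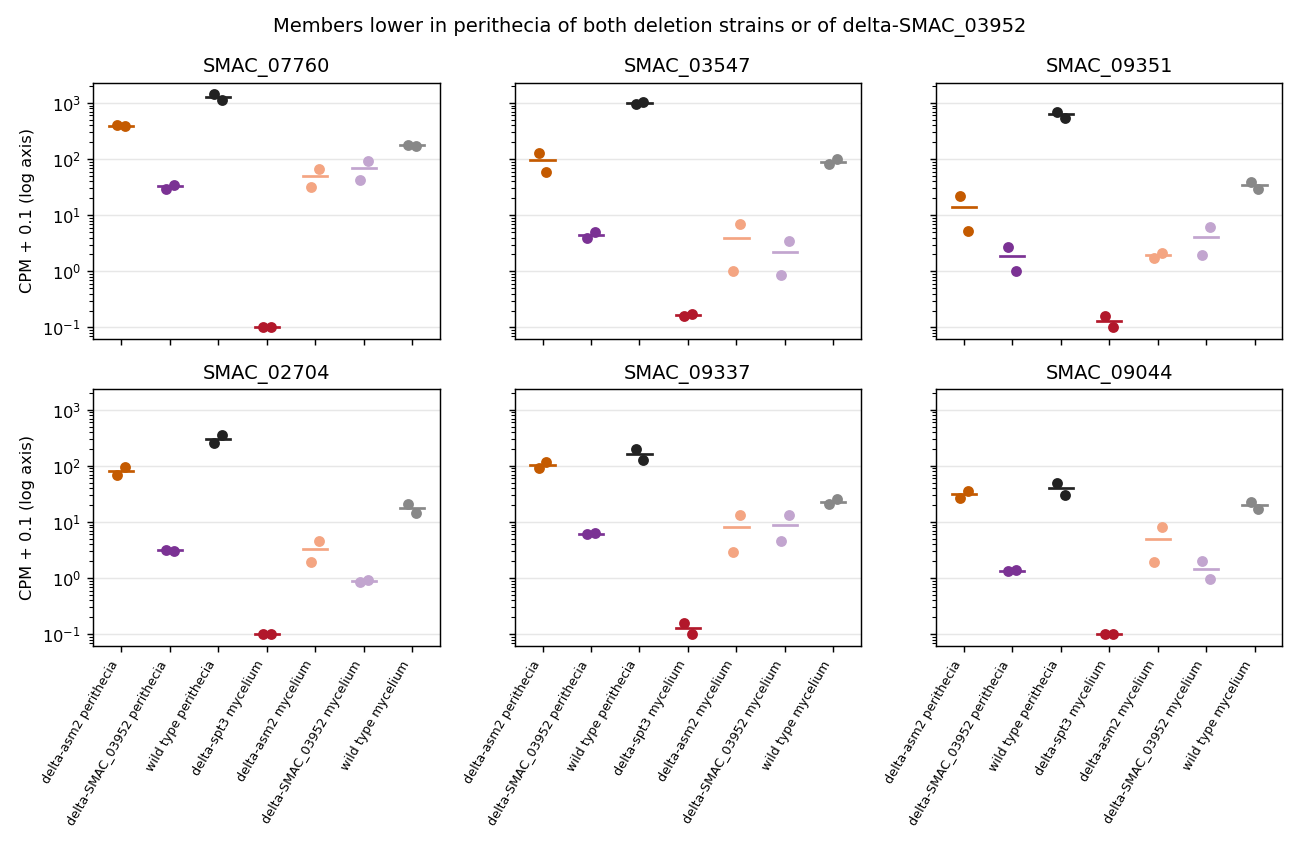
CPM + 0.1 on a log axis of 6 genes in each library of the 7 groups, with the mean of each group as a line. SMAC_09351, SMAC_03547, SMAC_02704 and SMAC_07760 lie lower in delta-SMAC_03952 perithecia than in delta-asm2 perithecia, and lower there than in wild-type perithecia.

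The direct test of delta-asm2 against delta-SMAC_03952 perithecia called 8 of the 79 genes higher (background 3.88%) and 1 lower (background 0.611%), with a median of -0.46 for the 79 genes and 0.03 for all genes. SMAC_02704 (log2 fold change 4.796 ± 0.374, edgeR adjusted p = 7.15e-05) and SMAC_07760 (3.68 ± 0.44, edgeR adjusted p = 0.000637) were higher in delta-asm2 in every fit without 1 library. SMAC_09044 (4.69 ± 0.67), SMAC_03547 (4.52 ± 0.73), SMAC_09337 (4.18 ± 0.66) and SMAC_09351 (3.07 ± 0.76) were higher as well, with edgeR adjusted p = 0.00201, 0.00342, 0.00299 and 0.0397, but these calls ended without 1 or more of the perithecium libraries. The lower gene was SMAC_08963, at 3.80 and 6.49 CPM in delta-asm2 perithecia, against 21.2 and 34.8 CPM in delta-SMAC_03952 perithecia (-2.36 ± 0.48, edgeR adjusted p = 0.0171), a call that ended without any 1 of the 4 libraries. The count of 9 came to 4 and 2 without delta-SMAC_03952 replicate 1 or 2 and to 6 without delta-asm2 replicate 1. A fit to these groups alone called 11 of the 79 higher, against 11.7% of all genes in that fit, and 33 lower, against 8.39%.

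In the edgeR test of delta-asm2 against delta-SMAC_03952 mycelium, 21 of the 79 genes had an unadjusted p under 0.05. The share of all genes at that cut is not given, so nothing is drawn from the 21. After adjustment the test called 2 of the 79 genes higher (background 2.6%) and 2 lower (background 0.863%), shares of 2.53% each. Counts this small, near the background, are no result about the 79 genes, and none of the 4 calls was kept in every fit without 1 library. SMAC_08909 had 6.10 and 5.53 CPM in delta-asm2 mycelium, against 23.3 and 56.9 CPM in delta-SMAC_03952 mycelium (log2 fold change -2.81 ± 0.41, edgeR adjusted p = 0.00448). SMAC_09560 had 49.3 and 40.4 CPM in delta-asm2 mycelium, against 16.5 and 18.0 CPM in delta-SMAC_03952 mycelium (1.37 ± 0.28, edgeR adjusted p = 0.0178). The other calls were SMAC_02704, higher, and SMAC_03167, lower. The count ran between 1 and 13 when single libraries were left out. The 13, all lower, came without delta-SMAC_03952 mycelium replicate 1 (background 2.86%), and the wide spread between these replicates stands beside it.

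Against wild-type mycelium, whose level chose the genes, values are given without a test. In delta-asm2 mycelium 12 genes lay above both wild-type libraries (background 25.6%) and 43 below (background 29.1%), with a median log2 ratio of -0.89 against -0.05 for all mycelium-expressed genes. In delta-SMAC_03952 mycelium 12 lay above (background 30%) and 32 below (background 35.2%), with medians of -0.50 and -0.04. The genes that were low without asm2 or SMAC_03952 still had counts: SMAC_03547 had 0.905 and 6.83 CPM in delta-asm2 mycelium and 0.756 and 3.41 CPM in delta-SMAC_03952 mycelium, against 80.2 and 99.7 CPM in wild-type mycelium. SMAC_02704 had 1.87 and 4.45 CPM in delta-asm2 mycelium and 0.756 and 0.812 CPM in delta-SMAC_03952 mycelium, against 21.2 and 14.5 CPM in wild-type mycelium. SMAC_03547, SMAC_09351, SMAC_02704 and SMAC_09044 were among the 5 lowest ratios in both strains, joined by SMAC_07659 in delta-asm2 and SMAC_00899 in delta-SMAC_03952.

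Some of the 79 genes lay side by side. In the gene order of the RefSeq annotation, which matched 77 of the 79 identifiers and may differ in assembly from the one behind the counts, 17 genes had another of the 79 directly next to them, in 9 neighbouring pairs. Allowing up to 2 genes in between, 22 genes formed 9 runs. The longest run held SMAC_09009, SMAC_09006, SMAC_09005, SMAC_09004 and SMAC_09002. SMAC_08819, SMAC_08821 and SMAC_08823 formed a run of 3, and the others were pairs: SMAC_09099 with SMAC_09098, SMAC_06843 with SMAC_06844, SMAC_07966 with SMAC_07967, SMAC_07247 with SMAC_07246, SMAC_08452 with SMAC_08453, SMAC_07568 with SMAC_07569 and SMAC_07659 with SMAC_07660.

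The genes of the longest run were all higher in perithecia than in mycelium of the deletion strains. SMAC_09009 had 255 and 203 CPM in delta-asm2 perithecia against 49.1 and 37.3 CPM in delta-asm2 mycelium (log2 fold change 2.25 ± 0.23, edgeR adjusted p = 0.000112). SMAC_09002 had 752 and 821 CPM in delta-asm2 perithecia against 232 and 147 CPM in delta-asm2 mycelium (1.89 ± 0.28, edgeR adjusted p = 0.000505). All 5 genes rose in both deletion strains, and the 5 calls in delta-asm2 were kept without each library. In delta-SMAC_03952 the rise was 1.72 ± 0.23 for SMAC_09009 (edgeR adjusted p = 0.00044) and 1.61 ± 0.27 for SMAC_09002 (edgeR adjusted p = 0.00134), and the call of SMAC_09004 (1.46 ± 0.37, edgeR adjusted p = 0.0101) ended without mycelium replicate 2 or perithecium replicate 1. Against wild-type perithecia not all of the 5 genes passed the test, and the genes were not tested against each other. In delta-asm2 perithecia none was called, with 0.79 for SMAC_09002, 0.93 for SMAC_09004, 0.68 for SMAC_09005, 0.69 for SMAC_09006 and -0.04 for SMAC_09009. In delta-SMAC_03952 perithecia SMAC_09002 (1.25 ± 0.27, edgeR adjusted p = 0.00734), SMAC_09004 (1.27 ± 0.37, edgeR adjusted p = 0.0324) and SMAC_09006 (0.90 ± 0.26, edgeR adjusted p = 0.0360) were called higher. SMAC_09005 (0.72 ± 0.27, edgeR adjusted p = 0.0907) and SMAC_09009 (0.08 ± 0.22, edgeR adjusted p = 0.838) were not. The calls of SMAC_09004 and SMAC_09006 ended without any 1 of the 4 libraries compared, and that of SMAC_09002 without delta-SMAC_03952 replicate 2. In wild type SMAC_09009 had 206 and 258 CPM in perithecia against 73.2 and 55.2 CPM in mycelium.

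Genes within and beside this run that are not among the 79 were also low in delta-spt3 mycelium. SMAC_09010, at its end, averaged 0.224 CPM in delta-spt3 mycelium, from 7 counts, against 2984 CPM in wild-type mycelium. It averaged 15204 CPM in delta-asm2 perithecia, 21288 CPM in delta-SMAC_03952 perithecia and 8539 CPM in wild-type perithecia. SMAC_09008 and SMAC_09007, between SMAC_09009 and SMAC_09006, averaged 2.48 and 0.952 CPM in delta-spt3 mycelium, against 161 and 31.1 CPM in wild-type mycelium. Their 75 and 29 counts kept them outside the rule, so the low stretch was longer than the run of chosen genes.

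**Figure D5:**
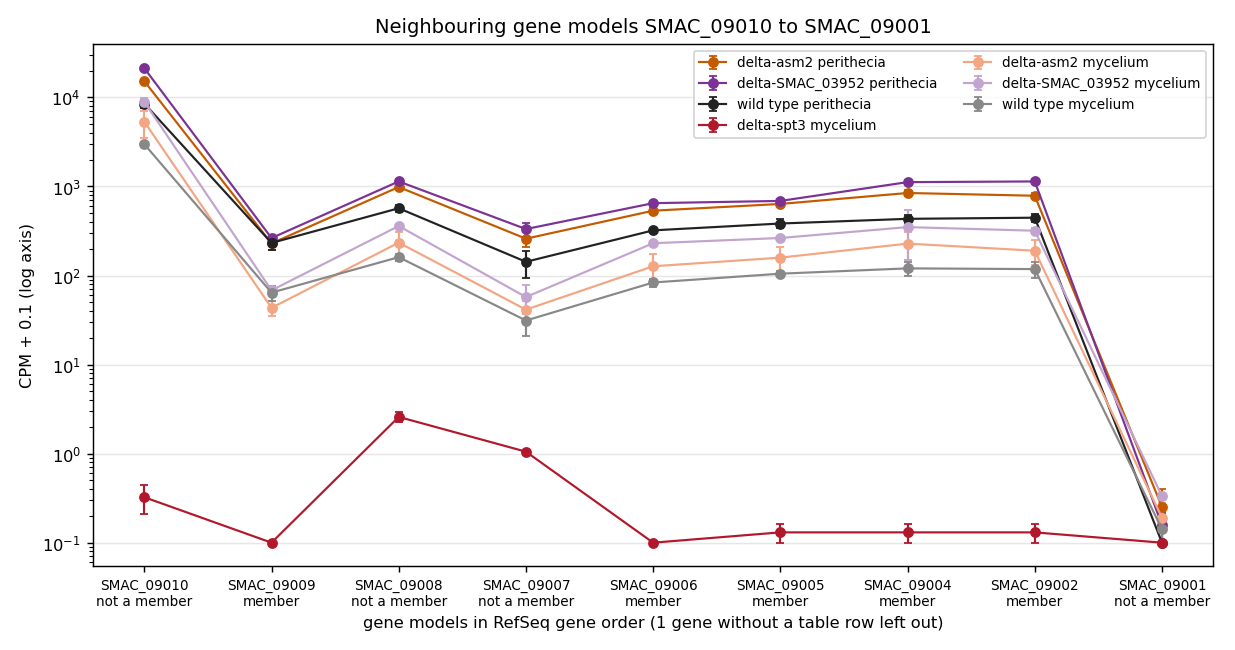
Mean CPM + 0.1 on a log axis of the genes in the longest run and beside it, in gene order, 1 line per group, with error bars of 1 SD over 2 replicates. The delta-spt3 line stays at or below 2.48 CPM throughout, and each perithecium line lies above the mycelium line of its strain from SMAC_09010 to SMAC_09002, while SMAC_09001 is at or below 0.234 CPM in all groups.

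Neighbours in general were lower too, though less so. Among 67 direct neighbours that are not among the 79 and reached 10 CPM in wild-type mycelium, the median log2 ratio of delta-spt3 to wild-type mycelium was -1.09, and 26 (38.8%) were at least 4-fold lower. Among all 7084 matched genes at that level outside the 79, the median was -0.12 and 13.3% were at least 4-fold lower. This is the contrast that chose the genes and is given as a description.

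The pairs did not all move together. SMAC_06843 and SMAC_06844 were both higher in delta-SMAC_03952 perithecia than in wild-type perithecia (log2 fold change 3.86 ± 0.65 and 3.81 ± 0.72, edgeR adjusted p = 0.0021 and 0.00338), as were SMAC_07966 and SMAC_07967 (3.42 ± 0.65 and 4.26 ± 0.80, edgeR adjusted p = 0.00399 and 0.00375). SMAC_07247 and SMAC_07246 went apart. SMAC_07247 had 35.7 and 50.6 CPM in delta-SMAC_03952 perithecia, against 4.08 and 5.03 CPM in wild-type perithecia (3.14 ± 0.59, edgeR adjusted p = 0.00321). SMAC_07246 had 0.940 and 0.922 CPM in delta-SMAC_03952 perithecia, against 2.18 and 5.24 CPM in wild-type perithecia (-2.06 ± 0.60, edgeR adjusted p = 0.0318), a call that ended without either delta-SMAC_03952 library, wild-type replicate 2 or scaling factors. In the run of 3, SMAC_08821 was lower in delta-SMAC_03952 than in wild-type perithecia while SMAC_08823, at 23.7 and 42.5 CPM against 0.873 and 3.47 CPM in wild-type perithecia, was higher (3.85 ± 0.83, edgeR adjusted p = 0.00834; the call ended without delta-SMAC_03952 replicate 2 or wild-type replicate 1).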

How the data were processed

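RNA of 14 libraries in 7 groups was sequenced on a HiSeq instrument, per the labels' protocols, which also mention microdissected RNA although every sample is named as mycelium or perithecia. The authors deposited raw counts per gene model, which were used for every test. Their deposited table also holds log2 fold changes, adjusted p-values and a signal column of mean normalised counts; DESeq2 is named in the submitters' processing notes, and the aligner and genome build are not given in those sources. The count table had 9869 gene models and 145 second-transcript rows, which held 0 counts and were left out. Gene identifiers came without product names, so lists of pathways or cell type markers could not be made.

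CPM were computed on library totals. Differences were tested with edgeR 4.0.16 in R 4.3.3 (quasi-likelihood, trimmed mean of M-values scaling with factors between 0.805 and 1.16, filterByExpr, 1 mean per group in a joint fit of 14 libraries), with Benjamini-Hochberg adjustment over 9499 genes and a threshold of 0.05; fold changes are on this scale. DESeq2 1.42.0 was an alternative. The code was tested on simulated data. With 2 replicates a group, precision rests on the pooled spread. Members and lists were chosen with earlier results of these data known. Genes named are, by rule, the 10 highest and 5 lowest in wild-type mycelium, up to 5 called per direction and comparison with replicates that do not overlap, the 5 extremes of each described ratio, and genes next to each other; others named were chosen after their values were seen. Alternatives were library totals without scaling, DESeq2's size factors, no filter on low counts, DESeq2's Wald test, a fit to the compared groups alone, a replicate block, removal of a trend with gene length, other thresholds of the rule, and leaving out each library.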

Additional observations from a re-analysis of the deposited data

Results flagged for a closer look

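The difference between the tissue effect (perithecia against mycelium) of delta-asm2 and that of delta-SMAC_03952 passed the test for SMAC_07760, with a log2 difference of 4.22 (edgeR adjusted p = 0.0295). This gene was higher in perithecia in both delta-asm2 replicates and lower in perithecia in both delta-SMAC_03952 replicates. The call ended in a fit to the compared groups alone (adjusted p = 0.0771) and without delta-asm2 mycelium replicate 1, either delta-asm2 perithecium library or either delta-SMAC_03952 perithecium library, with adjusted p between 0.0522 and 0.243.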

How the results depend on the processing

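With a minimum of 1 CPM the rule gave 256 genes, and it gave 38 with no counts in delta-spt3 mycelium and 138 with at most 10. Without single libraries the number of the 79 genes called ran between 19 and 26 for delta-asm2 perithecia against mycelium, 15 and 42 for delta-SMAC_03952 perithecia against mycelium, 7 and 15 for delta-asm2 and 27 and 37 for delta-SMAC_03952 against wild-type perithecia, 2 and 7 for delta-asm2 against delta-SMAC_03952 perithecia, 1 and 13 in mycelium, and 0 and 4 for the difference of tissue effects (10 to 25 at an unadjusted p under 0.05 where edgeR called 0). In most of these fits the share of all genes called fell too. The cause was not tested. A fit to the compared groups alone called 40 genes in delta-asm2 against wild-type perithecia, where 16.8% of all genes were called. It called 44 in delta-asm2 against delta-SMAC_03952 perithecia, where 20.1% of all genes were called. With edgeR it called 0 in mycelium (11 at an unadjusted p under 0.05), against 0.394% of all genes. For the difference of tissue effects it called 0 (16 at an unadjusted p under 0.05), against 0% of all genes. No share of all genes at an unadjusted p under 0.05 is given, so nothing is drawn from the unadjusted counts in this paragraph. DESeq2 called 8 in mycelium, against 7.06% of all genes tested, and 6 for the difference of tissue effects, against 1.2%. The labels do not say that a replicate number marks a shared batch, and it was not treated as a pairing. Correlations of replicate differences between groups ran between -0.33 and 0.38, with 0.22, 0.26 and 0.28 among the perithecium groups and 0.32 between mycelium of delta-asm2 and delta-SMAC_03952, so a shared factor in some groups was not tested beyond the block. With the replicate block the calls came to 30, 35, 27, 53, 9, 4 and 1, in the order of the comparisons above. Without it they were 28, 33, 25, 52, 9, 4 and 1. The shares of all genes called with the block were 27.1%, 37.4%, 12.9%, 18.1%, 4.64%, 3.59% and 0.179%. Without scaling factors the median of all genes moved to 0.20 and 0.24 in the tissue comparisons, and the 4 mycelium calls came to 1 higher and 2 lower. With the length trend removed, 1 call reversed, that of SMAC_09398 in delta-SMAC_03952 perithecia against mycelium. Of 565 alternatives for 51 results on named genes, 494 kept the call, 71 lost it and 0 reversed. Most of the lost calls were lost when a library was left out, and most of the other alternatives used the same libraries again. The named results were chosen among the calls for large fold changes, so they do not stand for all calls. At the depth of the delta-spt3 libraries, levels under 0.0987 CPM could not be told from 0.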
